A study of Mus musculus with 6 samples.

Results

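The genes described are 76 mouse genes from families of RNA-modifying and related proteins. Known activities include methylating RNA, isomerising uridine to pseudouridine, reducing or thiolating uridine, demethylating nucleic acids and building the Elongator complex. Some members act on protein or on substrates that are little known. All 76 were taken by name from the protein-coding genes of the annotation: the Trmt, Trmu, Pus, Pusl1, Trub, Nsun, Mettl, Dus, Alkbh and Elp families. They make up 76 of the 48440 genes in the table of counts. RNA was sequenced from primary CD4+ T cells of spleen and lymph nodes of wild-type mice. All cells had first been activated on plate-bound antibodies against CD3 and CD28 for 3 days and then grown in IL2 for 5 days. The stimulated group (3 libraries) received anti-CD3/CD28 again for 4 hours, and the unstimulated group (3 libraries) was left at rest. The comparison is therefore a second stimulation of previously activated cells, not the activation of naive cells. The labels name 3 replicates per group without saying whether they came from separate mice, so p-values measure only the spread between these libraries.

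Transfer RNA carries more chemical marks than other RNA classes, and those in and near the anticodon tune decoding while those in the body of the molecule stabilise its fold. Writers of these marks are often pairs, a catalytic subunit with a partner that holds the RNA or keeps the enzyme stable. Messenger and ribosomal RNA carry related marks, among them N6-methyladenosine (m6A), 5-methylcytosine (m5C) and pseudouridine, and T cells that receive a receptor signal raise their output of ribosomes and protein. Several genes with Mettl or Alkbh names act on protein or DNA instead of RNA, and these are described apart.

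Total reads per library ran from 29897720 to 30252923. The CD4 T cell markers were present in every library, with a sum of 1935 to 1981 CPM (read counts scaled to a common library total with TMM factors) in stimulated and 4407 to 4547 CPM in unstimulated libraries. All 7 of them fell. B cell markers also differed, with 729 to 1281 CPM in stimulated and 1410 to 2865 CPM in unstimulated libraries, almost all of it Ighm; 6 of the 7 fell and Pax5 did not pass the test. The NK list had 58.7 to 113 CPM in stimulated and 2.48 to 20.3 CPM in unstimulated libraries, nearly all of it Eomes, while Ncr1, Klrb1c and Klra8 were near 0. The endothelial and stromal list had 46.4 to 59.3 CPM in stimulated and 177 to 196 CPM in unstimulated libraries, nearly all of it Pecam1. The myeloid list had 2.93 to 3.69 CPM in stimulated and 6.22 to 8.24 CPM in unstimulated libraries, with S100a8 at 0 in all libraries. Of the CD8 pair Cd8a rose and Cd8b1 fell, and their sum was 20.7 to 25.8 CPM in stimulated and 20.9 to 24.8 CPM in unstimulated libraries, and the red cell list 0.213 to 0.827 CPM in stimulated and 0.605 to 1.89 CPM in unstimulated libraries. The part of these shifts in the results was not tested.

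Of the genes described, more rose than fell. Of the 67 members with enough reads for the test, 44 (65.7%) rose and 14 (20.9%) fell in stimulated cells, while 9 did not pass. Over all 13314 tested genes 38.4% rose and 39.1% fell, by edgeR's quasi-likelihood test at a Benjamini-Hochberg adjusted p of 0.05. Past a 2-fold change, tested with edgeR's glmTreat, 27 members (40.3%) were higher and 4 (5.97%) were lower, where 17.4% and 18.2% of all tested genes were. Among protein-coding genes alone 40.6% rose and 40.1% fell, and 18.2% were higher and 18.6% lower past 2-fold. The median log2 fold change was 0.82 for tested members and -0.04 for all tested genes. The 3 stimulated and 3 unstimulated values did not overlap for 60 members (89.6%), against 79.8% of all tested genes. In bulk RNA, fewer cells of a type and less RNA per cell cannot be told apart.

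**Figure D1:**
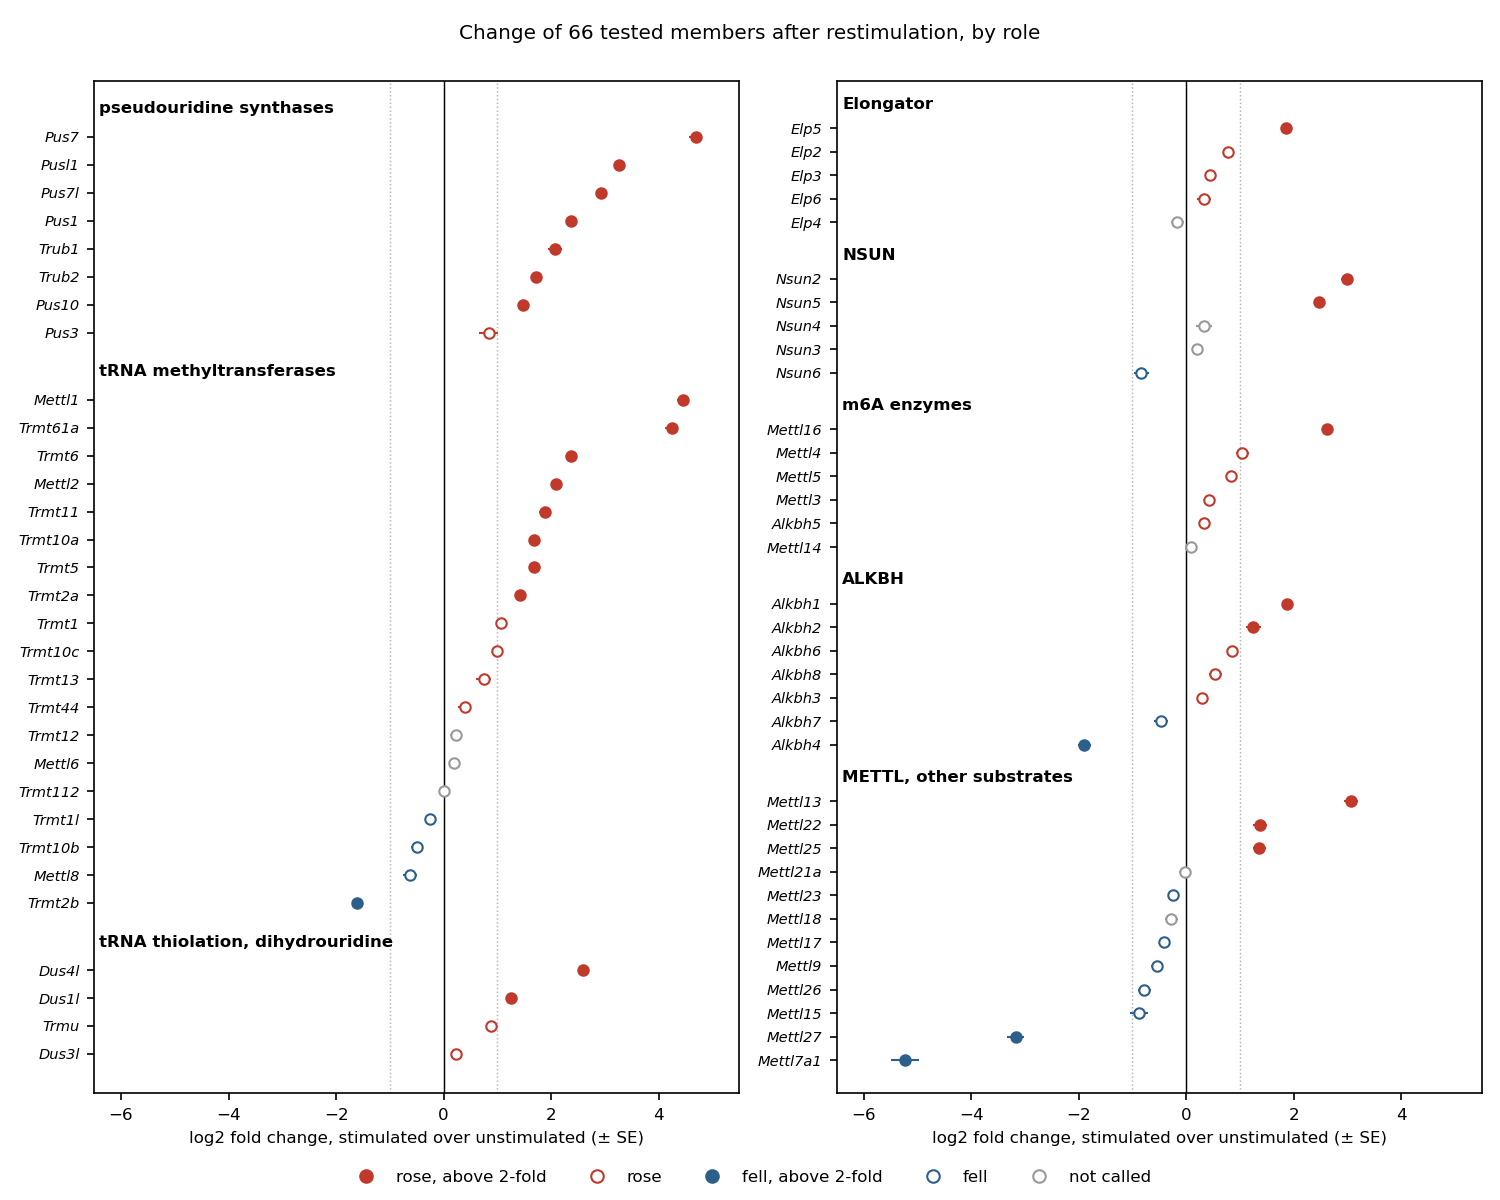
Log2 fold change (stimulated over unstimulated, horizontal axis, with its SE as a bar) of 66 tested members, grouped by role; filled points passed the test against a 2-fold change, open coloured points passed the plain test, and grey points did not pass. All 8 pseudouridine synthases lie to the right of 0, and 7 of the 12 tested METTL proteins with other substrates lie to the left with a call.

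The members together took 0.386 to 0.395% of all reads in stimulated libraries and 0.168 to 0.170% in unstimulated libraries. Their summed level was 4105 ± 55.7 CPM in stimulated and 1611 ± 11.9 CPM in unstimulated cells (SD, n = 3 each), a ratio of 2.55. Nsun2 alone gave 763 ± 27.5 CPM in stimulated and 96.3 ± 13.4 CPM in unstimulated cells. Without it the sums were 3342 ± 40.4 CPM in stimulated and 1515 ± 3.67 CPM in unstimulated cells, a ratio of 2.21.

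**Figure D2:**
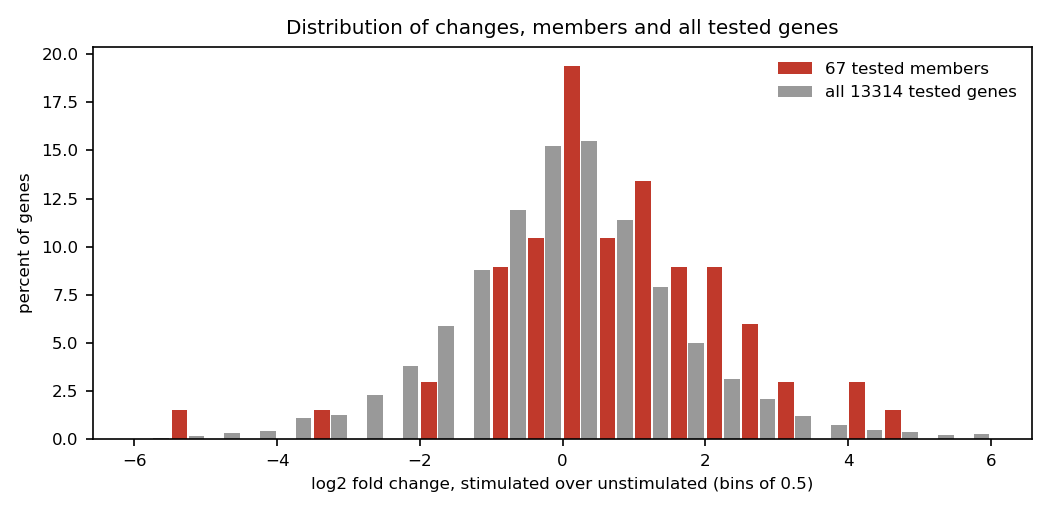
Percent of genes (vertical axis) in each bin of log2 fold change, stimulated over unstimulated (horizontal axis, bins of 0.5), for the 67 tested members in colour and all 13314 tested genes in grey. The members' bars are shifted to the right, with a median of 0.82 against -0.04; 76 tested genes beyond the plotted range are not drawn.

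All 8 pseudouridine synthases rose, 7 of them past 2-fold, with a median log2 fold change of 2.22. Their summed level was 703 ± 12.1 CPM in stimulated and 104 ± 2.01 CPM in unstimulated cells (SD, n = 3 each), a 6.74-fold ratio. Pus7 (ENSMUSG00000057541, chr5:23740648-23783711 on the minus strand of GRCm38), which modifies tRNA and mRNA at a short sequence motif, had 276, 276 and 259 CPM in stimulated and 12.1, 10.4 and 8.99 CPM in unstimulated libraries. Every stimulated library was far above every unstimulated one. Its log2 fold change was 4.69 (SE 0.11), a 25.7-fold rise with an adjusted p of 5.2e-09 by edgeR's quasi-likelihood test, and the largest rise among tested members.

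Pusl1 (chr4:155887879-155891781), a relative of Pus1 known in human cells to work in mitochondria, had 61.0, 67.7 and 65.2 CPM in stimulated and 7.45, 6.42 and 6.25 CPM in unstimulated libraries, a log2 fold change of 3.27 (SE 0.09). Of its exon bases 29.9% are shared with Ints11 on the opposite strand, a gene that changed by only 0.10 on the log2 scale (adjusted p = 0.197 by edgeR's quasi-likelihood test). Pus1, which modifies tRNA and mRNA in nucleus and mitochondria, had 144, 153 and 152 CPM in stimulated and 31.1, 28.0 and 27.6 CPM in unstimulated libraries. Pus1 rose 5.18-fold, and the groups were well apart. Trub1, which makes the pseudouridine of the T loop in tRNA, had 54.1, 56.2 and 53.6 CPM in stimulated and 11.0, 12.1 and 15.8 CPM in unstimulated libraries, a 4.21-fold rise.

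The other 4 spanned a wide range. Pus7l, the paralog of Pus7, rose 7.61-fold, Trub2, which acts in mitochondria, 3.28-fold and Pus10, which also modifies the T loop, 2.79-fold. Of the exon bases of Trub2 14.6% lie opposite Coq4, which rose by 2.59 on the log2 scale. Pus3, which modifies the anticodon arm, had the smallest rise, with 3.39 ± 0.0710 CPM in stimulated and 1.90 ± 0.245 CPM in unstimulated cells (SD, n = 3 each). Of its exon bases 88.1% lie opposite Hyls1, which fell by 0.41 on the log2 scale. The strand setting is not given, so how reads of the pair were assigned or dropped is not known. Per kilobase of exon, Pus7 stood at 1.98 ± 0.124 times Pus7l in stimulated and 0.587 ± 0.0959 times in unstimulated cells (SD, n = 3 each). The order of the paralogs was thus different in the groups on this scale; with the longest coding transcript as length the ratio was 3.87 in stimulated and 1.14 in unstimulated cells, so the switch of order depends on the length used. An exact two-sided permutation test of the ratio gave p = 0.1, the smallest that 3 against 3 libraries allow.

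The 4 members with the largest rises, Pus7, Mettl1, Trmt61a and Pusl1, shared a sequence feature that the name rule did not use. In RefSeq promoters of GRCm38.p6, running from 250 bases before to 50 bases after the start site, each had the palindromic E-box CACGTG just after the start. The E-box is the hexamer recognised by MYC with MAX and by other basic helix-loop-helix factors. These windows of 30 bases, 5′ to 3′ on the gene's strand with the E-box in capitals, are shown because, counted from the RefSeq start, the hexamer begins within a few bases of the same place in all of them.
Pus7: ggcgcagcgccgCACGTGtgcgagcccggc
Mettl1: agctcggctctcCACGTGgactgcgtggca
Trmt61a: ccgccgtggagcCACGTGtggagccgggag
Pusl1: tcgaccgcgggcCACGTGcaagcgccccgc

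The windows lie at chr5:23783666-23783695 (minus strand), chr10:127041950-127041979 (plus strand), chr12:111678118-111678147 (plus strand) and chr4:155891718-155891747 (minus strand), in the order shown. Counted from the start site, the first base of the hexamer was at position 29 in Pus7, 31 in Mettl1, 26 in Trmt61a and 28 in Pusl1. The bases on either side differed from gene to gene. The annotation used for gene spans starts Mettl1 and Pusl1 further upstream than RefSeq does, so for these genes the shared position depends on the start used. It starts Mettl1 at 127041414, far before the window at 127041950, so on that start the E-box is not just after it. For Pusl1 the shift is small, with a start at 155891781 and a window from 155891747 on the minus strand.

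Of 61 members with a promoter in the table, 8 (13.1%) held CACGTG anywhere in the 300 bases, against 11.9% of 9289 tested coding genes. Both shares count a gene if any of its promoters held it. Counted per promoter, the share was 7.15% of all 32851 promoters. An E-box beginning at or after the start site was found in 5 members (8.20%), the 4 with windows shown and Pus1. The share was 1.93% of tested coding genes, and per promoter 1.08% of all promoters. The remaining holders were Trmt10a, Pus3 and Alkbh7, where it lay before the start, and Alkbh7 was one that fell. Large rises also came without it: Nsun2 (log2 2.99), Pus7l (2.93) and Mettl16 (2.62) are among the 61 and do not hold CACGTG. Of the 22 members with a promoter and a rise past 2-fold 6 held the hexamer, and of the other 39 members with a promoter 2 did. The 6 include the 4 whose windows are shown, and the 39 include members not tested, such as Mettl7a2. The same split was not made over all tested genes. It was 1 of 6 motifs searched on both strands. The ETS-type CCGGAAGT was in 23.0% of members and 9.65% of tested coding genes, CATGCG (the NRF1 core, part of the longer NRF1 motif) in 16.4% and 11.8%, and GATTGG (a reverse CCAAT box) in 23.0% and 23.9%. The longer NRF1 motif was in 1.64% and 2.47%, and a ZBTB33-type motif in 3.28% and 1.18%. Split as for the E-box, CCGGAAGT was in 4 of the 22 members with a rise past 2-fold and in 10 of the other 39. GATTGG was also in 4 and 10, CATGCG in 5 and 5, the longer NRF1 motif in 1 and 0, and the ZBTB33-type motif in 1 and 1. The E-box and its position were picked out after the values were seen, the matches are a description of letters, and binding was not measured.

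**Figure D3:**
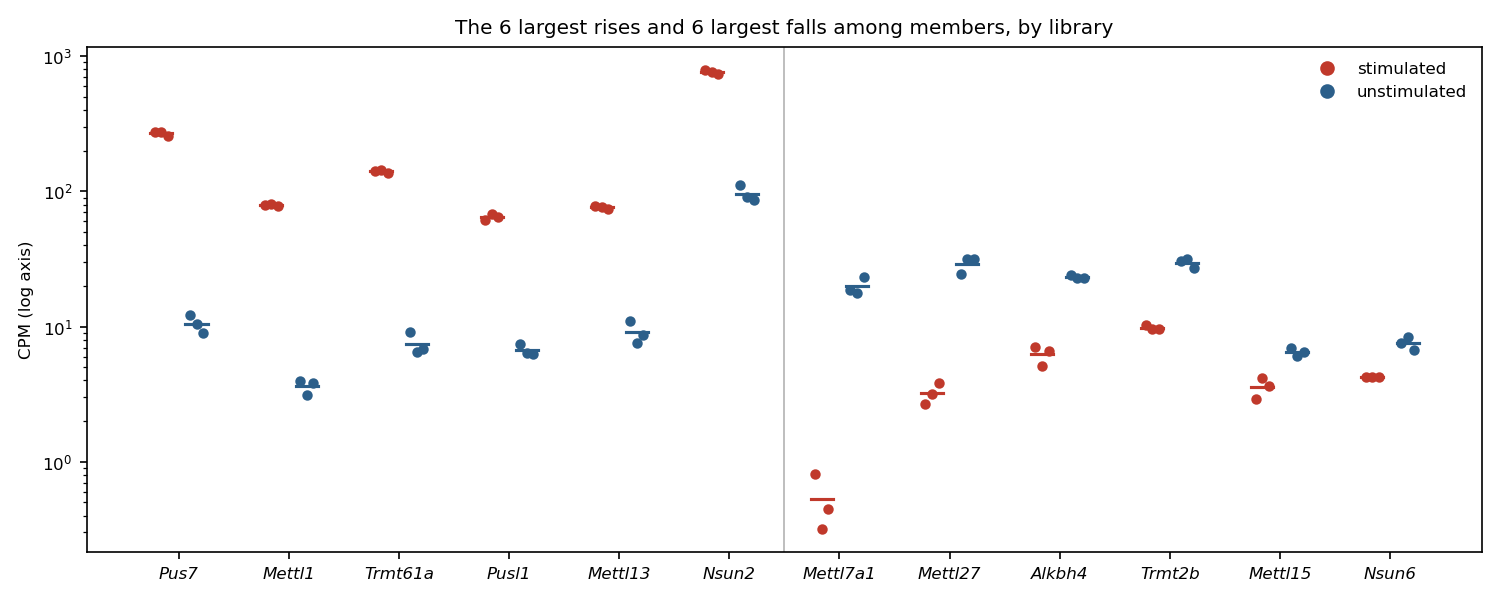
CPM per library (vertical log axis) of the 6 members with the largest rises, left of the line, and the 6 with the largest falls, right of it; points are libraries, bars are means, with stimulated in red and unstimulated in blue. In all 12 genes the 3 stimulated points are separate from the 3 unstimulated points, and Pus7 and Mettl7a1 have the widest gaps.

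Among the 19 tRNA methyltransferases and their partners named Trmt or Mettl, 12 rose, 4 fell and 3 did not pass, with 8 up and 1 down past 2-fold and a median log2 fold change of 1.00. Their summed level was 1026 ± 16.9 CPM in stimulated and 433 ± 5.85 CPM in unstimulated cells (SD, n = 3 each). Mettl1 (ENSMUSG00000006732, chr10:127041414-127046365), the catalytic subunit for 7-methylguanosine in the variable loop, had 79.0, 80.6 and 78.2 CPM in stimulated and 3.98, 3.10 and 3.83 CPM in unstimulated libraries. Its rise was 21.8-fold, with a log2 fold change of 4.45 (SE 0.10, adjusted p = 5.2e-09 by edgeR's quasi-likelihood test). Its partner Wdr4, which the name rule does not take, had 115 ± 4.87 CPM in stimulated and 23.4 ± 2.19 CPM in unstimulated cells (SD, n = 3 each), a 4.92-fold rise. Both subunits rose, the catalytic one by more. Per kilobase of exon, Mettl1 was at 1.29 ± 0.0521 times Wdr4 in stimulated and 0.291 ± 0.0214 times in unstimulated cells (exact two-sided permutation p = 0.1, the smallest possible with n = 3 each).

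The pair that makes 1-methyladenosine in the T loop had the same form. Trmt61a (ENSMUSG00000060950, chr12:111678105-111683902), the catalytic subunit, had 142, 143 and 137 CPM in stimulated and 9.07, 6.45 and 6.82 CPM in unstimulated libraries, an 18.9-fold rise (log2 4.24, SE 0.13). Trmt6, its RNA-binding partner, had 115, 118 and 109 CPM in stimulated and 24.9, 20.2 and 21.5 CPM in unstimulated libraries, a 5.14-fold rise. No value of either gene overlapped between groups. The length-scaled ratio of Trmt61a to Trmt6 was 2.73 ± 0.0560 in stimulated and 0.738 ± 0.0600 in unstimulated cells (SD, exact two-sided permutation p = 0.1, the smallest possible with n = 3 each). With the longest coding transcript as the length the ratio was 1.43 in stimulated and 0.390 in unstimulated cells, so the order of the subunits was again opposite in the groups.

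Trmt112, the small protein that binds and stabilises several methyltransferases, stood apart from the enzymes it serves. It had 42.2, 49.8 and 49.9 CPM in stimulated and 44.2, 46.3 and 50.3 CPM in unstimulated libraries, overlapping ranges with a log2 difference of 0.01 (SE 0.09, adjusted p = 0.93 by edgeR's quasi-likelihood test). That difference has no stable sign: 7 of its alternatives gave a negative value, among them library size alone and leaving out unstimulated replicate 1. Its exon bases overlap Prdx5 on the opposite strand by 33.2%, and Prdx5 changed by 0.11 on the log2 scale (adjusted p = 0.243). Of the genes described here, 6 enzymes are known to bind Trmt112, a set put together after the values were seen. All 6 rose, 3 of them past 2-fold, where 65.7% of tested members and 38.4% of all tested genes rose.

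Of those 6, Trmt11, which makes 2-methylguanosine in tRNA, rose 3.70-fold and Thumpd3, which makes the same mark at another site, rose 2.61-fold. Their relative Thumpd2 had the smallest rise, 1.27-fold, with 9.70 ± 0.519 CPM in stimulated and 7.64 ± 0.244 CPM in unstimulated cells (SD, n = 3 each; adjusted p = 0.016 by edgeR's quasi-likelihood test). Bud23, which methylates a guanine of the small ribosomal subunit RNA, rose 3.33-fold. Mettl5, which makes m6A in that same RNA, had 15.9, 16.8 and 17.6 CPM in stimulated and 9.45, 9.07 and 9.90 CPM in unstimulated libraries, a 1.77-fold rise. Alkbh8, which completes a methylated uridine at the wobble base, had 21.5, 20.2 and 20.1 CPM in stimulated and 16.1, 14.3 and 12.0 CPM in unstimulated libraries, a 1.46-fold rise. Per kilobase of exon Trmt112 was at 38.3 ± 3.58 in stimulated and 38.1 ± 2.52 CPM per kilobase in unstimulated cells, and Bud23 at 27.1 ± 1.65 in stimulated and 8.14 ± 0.745 CPM per kilobase in unstimulated cells (SD, n = 3 each). On this scale Trmt112 was above all 6 in both groups. With the longest coding transcript as length Bud23 and Thumpd3 stood at 1.19 and 1.13 times Trmt112 in stimulated cells, so that order depends on the length used.

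**Figure D4:**
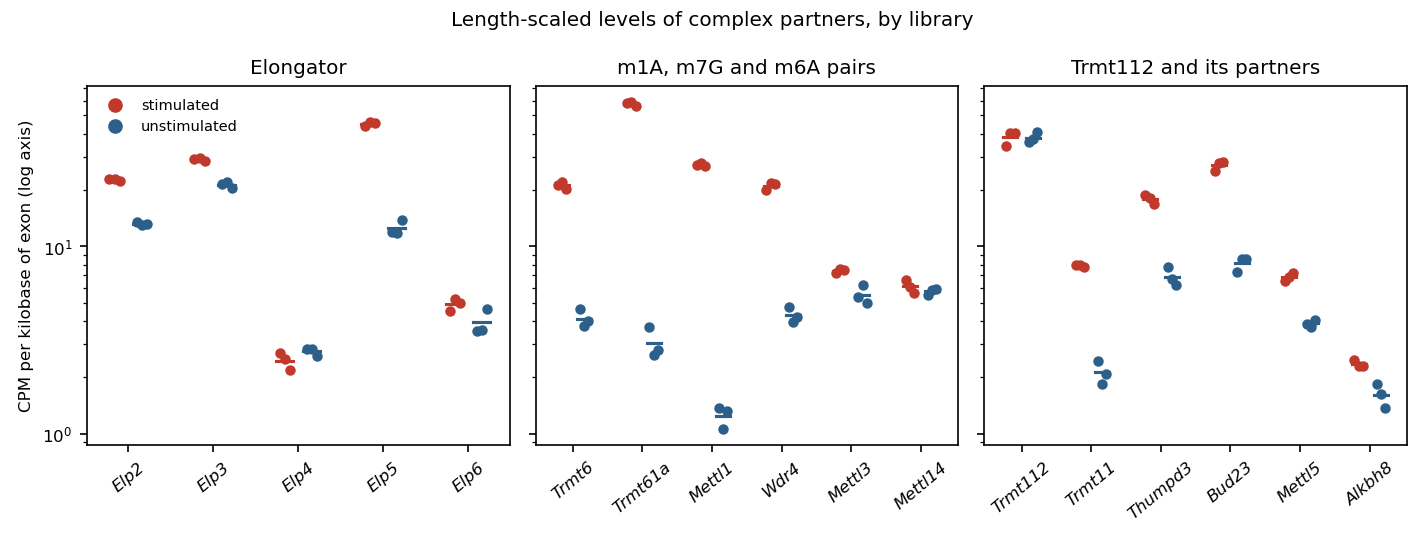
CPM per kilobase of exon (vertical log axis) in each library for 5 Elongator subunits, for the pairs Trmt6 and Trmt61a, Mettl1 and Wdr4, and Mettl3 and Mettl14, and for Trmt112 with 5 of the 6 enzymes that bind it (all but Thumpd2); points are libraries and bars are means, stimulated in red and unstimulated in blue. Trmt61a lies above Trmt6 in stimulated libraries only, and Trmt112 overlaps between groups while the 5 are higher in stimulated libraries.

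Other tRNA methyltransferases that rose past 2-fold were Mettl2 (4.26-fold), which makes 3-methylcytosine, Trmt10a (3.22-fold), which makes 1-methylguanosine, Trmt5 (3.22-fold), which makes that mark next to the anticodon, and Trmt2a (2.67-fold), which makes 5-methyluridine. Trmt2a shares 15.5% of its exon bases with Dgcr8 on the opposite strand. Smaller rises were those of Trmt1 (2.10-fold), which makes dimethylguanosine, Trmt10c (2.00-fold), a subunit of mitochondrial RNase P, Trmt13 (1.67-fold) and Trmt44 (1.31-fold), the last 2 ribose methyltransferases. The call of Trmt44 was lost without stimulated replicate 2 (adjusted p = 0.0506) or unstimulated replicate 2 (0.0545), by edgeR's quasi-likelihood test. Hsd17b10, the partner of Trmt10c in mitochondrial RNase P, had 56.9 ± 4.97 CPM in stimulated and 52.9 ± 4.49 CPM in unstimulated cells (SD, n = 3 each) and did not pass (log2 0.11, adjusted p = 0.31 by edgeR's quasi-likelihood test; -0.03 with library size alone). Trmt12, a wybutosine enzyme, at a log2 change of 0.23, and Mettl6, another 3-methylcytosine enzyme, at 0.19 did not pass, and with the replicate number as a block Mettl6 had an adjusted p of 0.0479 by the same test.

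The 4 falls in this list were led by Trmt2b, the mitochondrial counterpart of Trmt2a. It had 10.2, 9.62 and 9.54 CPM in stimulated and 30.4, 31.9 and 27.0 CPM in unstimulated libraries, a 3.04-fold fall (log2 -1.60, SE 0.09). Trmt2a and Trmt2b thus changed in opposite directions. Mettl8, the mitochondrial 3-methylcytosine enzyme, fell 1.55-fold, Trmt10b, a paralog of Trmt10a, fell 1.42-fold and Trmt1l, a paralog of Trmt1, fell 1.19-fold. The call of Trmt1l was lost without stimulated replicate 2 (adjusted p = 0.146) or replicate 3 (0.108), and without unstimulated replicate 2 (0.0778) or replicate 3 (0.0804), by edgeR's quasi-likelihood test.

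All 4 tested genes for thiolation and dihydrouridine rose, 2 past 2-fold, with a median log2 fold change of 1.06. Dus4l, 1 of the dihydrouridine synthases of tRNA, had 19.0, 18.6 and 19.2 CPM in stimulated and 2.90, 3.26 and 3.21 CPM in unstimulated libraries, a 6.06-fold rise with tight groups. Its relatives Dus1l and Dus3l rose 2.39-fold and 1.18-fold, and the call of Dus3l was lost without stimulated replicate 2 (adjusted p = 0.079) or replicate 3 (0.0814), and without unstimulated replicate 2 (0.0672) or replicate 3 (0.0691), by edgeR's quasi-likelihood test. Dus2, the remaining member of that family and outside the name rule, rose 2.04-fold. Trmu, which thiolates the wobble uridine of mitochondrial tRNAs, had 19.3, 17.4 and 17.6 CPM in stimulated and 9.58, 9.55 and 10.5 CPM in unstimulated libraries, a 1.83-fold rise.

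Elongator starts the modification of wobble uridines in tRNA, and its subunits did not move by like amounts. Of the 5 subunits reported here 4 rose, 1 of them past 2-fold, and 1 did not pass. Elp3, the catalytic subunit, had 87.8, 88.5 and 85.3 CPM in stimulated and 64.3, 66.6 and 61.6 CPM in unstimulated libraries, a 1.36-fold rise with groups apart. Elp2, the WD-repeat subunit, rose 1.71-fold.

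The accessory subunits Elp4, Elp5 and Elp6, which form a ring in the complex, split. Elp5 rose 3.62-fold, to 104 ± 2.25 CPM in stimulated against 28.7 ± 2.80 CPM in unstimulated cells (SD, n = 3 each). Elp6 had 14.2 ± 1.06 CPM in stimulated and 11.3 ± 1.81 CPM in unstimulated cells and overlapped between groups, with an adjusted p of 0.046 by edgeR's quasi-likelihood test. That call was lost without stimulated replicate 2 (0.131) or replicate 3 (0.0946) and without unstimulated replicate 1 (0.118) or replicate 2 (0.166). Elp4 had 8.16 ± 0.837 CPM in stimulated and 9.16 ± 0.448 CPM in unstimulated cells, a log2 difference of -0.17 that did not pass (adjusted p = 0.23).

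Per kilobase of exon, the highest of these 5 subunits was Elp5 in stimulated cells, at 45.2 ± 0.979 CPM per kilobase, and Elp3 in unstimulated cells, at 21.4 ± 0.835 CPM per kilobase (SD, n = 3 each). Elp4 was the lowest in both, at 2.46 ± 0.252 CPM per kilobase in stimulated and 2.76 ± 0.135 CPM per kilobase in unstimulated cells. With the longest coding transcript as length Elp5 was again the highest in stimulated and Elp4 the lowest in both, but in unstimulated cells Elp2, at 23.9 CPM per kilobase, was above Elp3, at 22.5. The ratio of Elp3 to Elp4 was 11.9 ± 1.06 in stimulated and 7.74 ± 0.172 in unstimulated cells (SD, exact two-sided permutation p = 0.1, the smallest possible with n = 3 each). Proteins that act with Elongator also rose, Kti12 (3.99-fold) and Dph3 (2.17-fold), as did Ctu2 (5.75-fold) and Ctu1 (1.77-fold), which thiolate the same uridine. Listed with them among other tRNA modification enzymes, Mocs3 rose 2.19-fold, while Urm1 did not pass (log2 0.02, adjusted p = 0.82 by edgeR's quasi-likelihood test).

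The cytosine methyltransferases held the most abundant member. Nsun2 (ENSMUSG00000021595, chr13:69533746-69635780), which makes m5C in many tRNAs and in mRNA, had 791, 761 and 737 CPM in stimulated and 112, 90.6 and 86.7 CPM in unstimulated libraries. It rose 7.92-fold (log2 2.99, SE 0.10, adjusted p = 1.9e-08 by edgeR's quasi-likelihood test). At 133 ± 4.80 CPM per kilobase it was the highest of the tested members in stimulated cells, and at 16.8 ± 2.34 CPM per kilobase it was the fourth in unstimulated cells, behind Trmt112, Mettl23 and Elp3. With the longest coding transcript as length it was again the highest in stimulated cells, while Mettl23 and Trmt112 led in unstimulated cells. Nsun5, which methylates the large ribosomal subunit RNA, rose 5.54-fold, and 15.4% of its exon bases are shared with Pom121 on the opposite strand, which rose by 0.87 on the log2 scale.

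Nsun6, which methylates tRNA and mRNA, was the exception among the 5 tested NSUN genes. It had 4.25, 4.25 and 4.20 CPM in stimulated and 7.57, 8.44 and 6.66 CPM in unstimulated libraries, a 1.78-fold fall. The mitochondrial enzymes Nsun3, which acts on a tRNA, and Nsun4, which acts on a ribosomal RNA, had log2 differences of 0.21 and 0.33 and did not pass. With the replicate number as a block, Nsun4 passed with an adjusted p of 0.0063 by edgeR's quasi-likelihood test. Nsun7 had 4 reads over the stimulated and 28 over the unstimulated libraries and was not tested.

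Among the m6A enzymes, 5 of 6 rose, but only Mettl16 passed 2-fold, and the median log2 fold change was 0.62. Mettl16 (ENSMUSG00000010554, chr11:74770830-74828525), which methylates a spliceosomal RNA and the mRNA for S-adenosylmethionine synthetase, had 116, 120.1 and 109.6 CPM in stimulated and 19.7, 17.5 and 19.3 CPM in unstimulated libraries, a 6.13-fold rise. The core pair of the mRNA m6A writer changed far less. Mettl3, the catalytic subunit, had 36.4, 38.6 and 38.0 CPM in stimulated and 27.3, 31.6 and 25.4 CPM in unstimulated libraries, a 1.34-fold rise (adjusted p = 0.0024 by edgeR's quasi-likelihood test). Of its exon bases 18.4% lie opposite Tox4, which did not pass.

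Mettl14, the RNA-binding partner of Mettl3, had 49.2, 45.2 and 41.8 CPM in stimulated and 40.7, 43.6 and 43.8 CPM in unstimulated libraries. The ranges overlapped, and the log2 difference of 0.09 (SE 0.08, adjusted p = 0.33 by edgeR's quasi-likelihood test) was -0.05 with library size alone. The ratio of Mettl3 to Mettl14 per kilobase was 1.22 ± 0.125 in stimulated and 0.962 ± 0.108 in unstimulated cells (SD, exact two-sided permutation p = 0.1, the smallest possible with n = 3 each). With the longest coding transcript as length the ratio was 2.95 in stimulated and 2.34 in unstimulated cells. Alkbh5, the demethylase that removes m6A from mRNA, had 130.3, 121 and 117 CPM in stimulated and 110.1, 97.9 and 84.8 CPM in unstimulated libraries, a 1.26-fold rise. Fto, the other demethylase, fell 1.67-fold, to 24.7 ± 0.956 CPM in stimulated against 41.3 ± 2.71 CPM in unstimulated cells (SD, n = 3 each). Mettl4, which methylates adenosine in a spliceosomal RNA, rose 2.06-fold without passing the test against 2-fold.

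The accessory proteins of the m6A writer went different ways. Wtap, which joins the core to its accessory subunits, had 119 ± 1.08 CPM in stimulated and 123 ± 2.94 CPM in unstimulated cells (SD, n = 3 each) and did not pass (log2 -0.05, adjusted p = 0.47 by edgeR's quasi-likelihood test), except with library size alone (log2 -0.19, adjusted p = 0.0167). Virma, the large scaffold, fell 2.72-fold, to 73.5 ± 5.26 CPM in stimulated against 199.7 ± 16.6 CPM in unstimulated cells. Of the 13 m6A subunits, readers and the second demethylase outside the name rule, 8 rose, 3 fell and 2 did not pass. The reader Ythdf2, which leads m6A-marked mRNA to decay, rose 2.49-fold and was the only one of the 13 to rise past 2-fold.

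All 7 other ALKBH dioxygenases passed the test, 5 upward and 2 downward, with a median log2 fold change of 0.54. Of all tested genes, 38.4% rose and 39.1% fell, so most genes passed too. Alkbh1, which removes methyl groups from tRNA, had the largest rise, with 82.2, 81.8 and 83.4 CPM in stimulated and 24.5, 22.9 and 19.7 CPM in unstimulated libraries, 3.68-fold. The DNA repair enzyme Alkbh2 rose 2.38-fold, and 29.5% of its exon bases are shared with Usp30 on the opposite strand, which did not pass. Alkbh6, whose substrate is little known, rose 1.80-fold, and Alkbh3, which repairs alkylated DNA and RNA, rose 1.23-fold. The call of Alkbh3 was lost with library size alone (log2 0.16, adjusted p = 0.168) and without unstimulated replicate 2 (adjusted p = 0.0609), by edgeR's quasi-likelihood test.

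Alkbh4 (chr5:136136146-136141615), which in human cells demethylates actin, had 7.12, 5.09 and 6.62 CPM in stimulated and 24.2, 23.0 and 22.8 CPM in unstimulated libraries. The groups were far apart, and the fall was 3.72-fold (log2 -1.89, SE 0.13). Alkbh7, a mitochondrial protein, fell 1.38-fold, to 6.86 ± 0.421 CPM in stimulated against 9.48 ± 1.18 CPM in unstimulated cells (SD, n = 3 each).

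The METTL proteins that act on protein, on mitochondrial ribosomes or on substrates that are little known were the list with more falls than rises. Of 19, 12 were tested: 7 (58.3%) fell, 3 (25.0%) rose and 2 did not pass, and the median log2 fold change was -0.35. Over all tested genes 39.1% fell and 38.4% rose. Past 2-fold 3 (25.0%) of the list were higher and 2 (16.7%) lower, against 17.4% and 18.2% of all tested genes. The summed level of the 19 was 279 ± 3.30 CPM in stimulated and 293 ± 17.7 CPM in unstimulated cells (SD, n = 3 each). The 55 tested members of the other 7 lists had 41 rises, 7 falls and a median log2 fold change of 0.87. The largest fall was that of Mettl7a1 (ENSMUSG00000054619, chr15:100304140-100328662), a protein of the endoplasmic reticulum and lipid droplets. It had 0.815, 0.316 and 0.448 CPM in stimulated and 18.6, 17.7 and 23.3 CPM in unstimulated libraries, a 37.5-fold fall (log2 -5.23, SE 0.26, adjusted p = 1.7e-07 by edgeR's quasi-likelihood test). The reads of Mettl7a1 were 23, 9 and 13 in stimulated and 586, 559 and 740 in unstimulated libraries. With a filter minimum of 10 counts, it entered the test through the group where it was high. The paralogs of Mettl7a1, Mettl7a2 and Mettl7a3, had 3 and 0 reads over all 6 libraries.

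Mettl27, whose substrate is little known, had 2.69, 3.19 and 3.82 CPM in stimulated and 24.4, 31.4 and 31.8 CPM in unstimulated libraries, a log2 fold change of -3.17 (SE 0.16). Mettl15, which methylates mitochondrial ribosomal RNA, had 2.91, 4.14 and 3.62 CPM in stimulated and 6.97, 6.07 and 6.54 CPM in unstimulated libraries, a 1.83-fold fall. No library of either gene crossed into the other group's range. Smaller falls were those of Mettl26 (1.72-fold), Mettl9 (1.47-fold), which methylates histidine in proteins, Mettl17 (1.34-fold), which helps assemble mitochondrial ribosomes, and Mettl23 (1.18-fold). Mettl23 shares 17.1% of its exon bases with Srsf2 on the opposite strand, which had 100759 reads over all libraries against 11208 for Mettl23 and rose by 1.95 on the log2 scale.

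Against this trend, Mettl13 (ENSMUSG00000026694, chr1:162532127-162548551), which methylates the translation elongation factor eEF1A, had 77.8, 77.1 and 73.8 CPM in stimulated and 11.0, 7.62 and 8.67 CPM in unstimulated libraries. Its rise was 8.37-fold (log2 3.07, SE 0.13), with the groups far apart. Mettl22, another protein methyltransferase, rose 2.59-fold, and Mettl25, whose substrate is little known, rose 2.56-fold. Of the exon bases of Mettl25 11.3% lie opposite Ccdc59, which had 8896 reads over all libraries against 1858 for Mettl25 and rose by 1.13 on the log2 scale. Mettl21a, which methylates heat shock proteins, did not pass at -0.03 on the log2 scale, a value whose sign turned in 4 alternatives that left out libraries. Mettl18, which methylates a histidine of a ribosomal protein, had a log2 difference of -0.28 and did not pass (adjusted p = 0.062), and with the replicate number as a block the adjusted p was 0.0464 by edgeR's quasi-likelihood test.

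Of the tested members 10 are known to work mainly in mitochondria, a grouping made after the values were seen. Of these, Trub2, Trmt10c and Trmu rose, Trmt2b, Mettl15, Mettl8, Alkbh7 and Mettl17 fell, and Nsun3 and Nsun4 did not pass. Among all tested genes 38.4% rose and 39.1% fell. The median log2 fold change of the 10 was -0.11, with a range of -1.60 to 1.71. Its sign depends on the grouping: with Pusl1 counted in, 4 rose and 5 fell and the median was 0.21. The other 57 tested members had 41 rises, 9 falls and a median of 0.85, Pus1 and Pusl1 among them.

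Genes of RNA modification outside the name rule also rose more often than they fell. Of 71 measured, 49 (69.0%) rose, 12 (16.9%) fell and 10 did not pass by edgeR's quasi-likelihood test, with a median log2 fold change of 0.75. Past 2-fold 22 (31.0%) were higher and 2 (2.82%) lower, against 40.3% and 5.97% of tested members. Over all tested genes 38.4% rose and 39.1% fell, and 17.4% were higher and 18.2% lower past 2-fold. The 3 largest rises were Qtrt2 (log2 3.59), a subunit of the enzyme that inserts queuine into tRNA, Nop2 (log2 3.44), which methylates the large ribosomal subunit RNA, and Tarbp1 (log2 3.14), a ribose methyltransferase of tRNA. Qtrt1, the catalytic partner of Qtrt2, rose 3.43-fold. The 3 largest falls were Wdr6 (3.43-fold), the partner of the ribose methyltransferase Ftsj1, then Virma, then Lage3 (1.82-fold), a subunit of the KEOPS complex. Ftsj1 itself did not pass, at a log2 difference of -0.12.

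By list, 10 of 14 tRNA methylation partners rose and 2 fell, and 15 of 22 other tRNA modification enzymes rose and 3 fell. Among 8 other pseudouridine synthases and H/ACA proteins 6 rose and 1 fell, and among 9 ribosomal RNA methyltransferases 7 rose and 1 fell. The guided pseudouridine machinery rose as well: Dkc1, its catalytic subunit, rose 7.47-fold, Gar1 8.11-fold, Nhp2 6.22-fold and Nop10 2.12-fold. Of the 5 cap methylation genes 3 rose and 2 fell, where 38.4% and 39.1% of all tested genes did. Cmtr2 rose 4.20-fold and Cmtr1 2.38-fold, both ribose methyltransferases of the cap, and Rnmt, the cap guanine methyltransferase, rose 1.68-fold. Its activator Ramac fell 1.75-fold, and Pcif1, which methylates the adenosine next to the cap, fell 1.53-fold.

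The remaining 9 members were too low for the test. Mettl11b, Mettl21e, Mettl7a3 and Trmt9b had 0 reads in all libraries, against a floor of 3 counts that corresponds to 0.0943 to 0.106 CPM per library. Mettl21c had 5 reads over the stimulated and 18 over the unstimulated libraries, Mettl7b 1 and 6, Mettl24 0 and 2, and Mettl7a2 0 and 3, besides Nsun7. Pus1, Alkbh6, Mettl9 and Trmt13 also share 10% or more of their exon bases with another gene, which had at most 204 reads over all libraries. No tested member had all 3 libraries of a group under the filter's minimum of 10 counts. Mettl7a1 met that minimum in all 3 libraries only in the unstimulated group.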

How the data were processed

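The authors deposited a single table of raw read counts, with a row for each Ensembl gene and a column for each library. The tools were STAR 2.5.2a, HTSeq and DESeq2 on build GRCm38, per the submitters' processing notes. As for annotation release and strand setting, neither is given in the sources used here. How reads over bases shared by overlapping genes were assigned or dropped is therefore not known, and levels per kilobase of such genes carry this limit. Names and GRCm38 coordinates came from GENCODE M21, which matched 48058 identifiers, and promoters from RefSeq (GRCm38.p6).

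All 48440 genes entered edgeR 4.0.16 (R 4.3.3) with TMM, filterByExpr on the group and robust dispersions. Its two-sided quasi-likelihood test had group as sole covariate, with Benjamini-Hochberg adjustment over the 13314 genes kept and a threshold of 0.05; glmTreat tested against a log2 fold change of 1. The pipeline was tested on simulated data. It recovered 63% of 100 changes of 1.5-fold and 91% of 100 changes of 2-fold, with 8 false among 162 calls. No 2 libraries of a group agreed within counting noise (dispersion index of pairs 9.41 to 37.6, about 1 for counting alone). Levels of different genes were compared per kilobase of the union of exons. Exact permutation tests used scipy 1.17.1. Floors hold for counting error alone, as the reads carry no molecular identifiers.

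The members, role lists and partner lists were chosen with earlier results of these data known. Of 73 partner entries 71 matched. Full values are given for the 6 largest rises and 6 largest falls with a mean of at least 1 CPM, for members the rule names, and for the largest rise and fall of each role list. Partners named by the rule were Wtap, Fto, Wdr4, Hsd17b10, Dus2 and the 3 largest rises and falls; other partners were named after their values were seen. 1 member that the rule takes is counted in the totals but not reported here.

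Same-numbered libraries of the groups deviated together from their group means (Pearson's r over 11586 genes 0.471, 0.156 and 0.506 for numbers 1, 2 and 3). The labels do not say what a number marks. Values with the replicate block stand beside the 3 members whose call it changed. Alternatives were RLE, library size alone, no filter, 1 CPM in 3 libraries, the replicate block, DESeq2 1.42.0, limma-voom (limma 3.58.1), an adjusted p of 0.01, leaving out each library or number, and, chosen after seeing the data, leaving out 15 members whose exons overlap another gene by 10% or more.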

Additional observations from a re-analysis of the deposited data

How the results depend on the processing

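The counts of members and partners that rose or fell stayed within 1.5 times their reported values under every alternative run. The member rises ran from 33 to 46, the falls from 11 to 16, those past 2-fold from 20 to 27 up and 4 to 5 down; partner rises ran from 43 to 49 and falls from 10 to 15. Without the 15 members that overlap another gene 33 rose and 12 fell, with 20 up and 4 down past 2-fold. These are counts of a smaller set, so the low ends of 33 and 20 are not a loss of calls. With the replicate block 46 members rose and 15 fell, Mettl18, Mettl6 and Nsun4 being added, and it changed no other call of a member. Of the 67 tested members, 52 kept call and direction under all 17 alternatives; 8 called members lost the call in at least 1 (Alkbh3, Alkbh5, Alkbh7, Dus3l, Elp6, Mettl23, Trmt1l and Trmt44) and no called member reversed.

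Library size alone moved the median of all tested genes by -0.14 on the log2 scale. Signs turned for 4 genes that had not passed: Hsd17b10 to -0.033 and Mettl14 to -0.052 with library size alone, Mettl21a within -0.11 to 0.040 as libraries were left out, and Trmt112 to -0.13 with library size alone, to -0.0068 with the 1 CPM filter, and within -0.038 to 0.092 as libraries were left out. Over the alternatives the adjusted p ran from 0.0060 to 0.342 for Elp6, 0.0027 to 0.235 for Trmt1l, 0.0040 to 0.323 for Dus3l and 0.0046 to 0.162 for Trmt44, by edgeR, DESeq2 or limma-voom; the cause was not tested. The calls of Alkbh5, Alkbh7 and Mettl23 were lost without both libraries of number 2 (0.0907, 0.106 and 0.139). With library size alone Elp6 (adjusted p = 0.241), Dus3l (0.323), Trmt44 (0.0697), Alkbh3 (0.168) and Alkbh5 (0.0797) lost the call, and Elp4 (log2 -0.31, adjusted p = 0.0380), Mettl18 (-0.42, 0.0105) and the partner Wtap (-0.19, 0.0167) passed, by edgeR's quasi-likelihood test. Alternatives that leave out both libraries of a number leave 2 against 2. Members that the filter removed, with its minimum of 10 counts, were not tested, among them Nsun7 with 13, 9 and 6 reads in unstimulated libraries. Those under about 3 counts per library could not be assessed at this depth.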

Other observations

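Trmt61b, the mitochondrial relative of Trmt61a, is annotated as an antisense gene in the release used for names and so fell outside the name rule. It had 11.4, 13.4 and 12.5 CPM in stimulated and 3.88, 4.74 and 4.02 CPM in unstimulated libraries, a 2.95-fold rise (log2 1.56, SE 0.13, adjusted p = 4.4e-06 by edgeR's quasi-likelihood test).

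Cdk5rap1, which modifies mitochondrial tRNAs, was uneven within groups, with 12.5, 12.8 and 26.5 CPM in stimulated and 11.8, 14.5 and 80.3 CPM in unstimulated libraries. The highest value of each group was that of replicate 3, and the gene did not pass (log2 -1.04, SE 0.88, adjusted p = 0.33 by edgeR's quasi-likelihood test).

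KEOPS and its substrate supply, which make threonylcarbamoyladenosine in tRNA, split. Yrdc, which makes the activated precursor, rose 7.02-fold and Tprkb rose 1.37-fold, while the catalytic subunit Osgep fell 1.26-fold and Lage3 fell 1.82-fold. Nat10, which acetylates cytidine in tRNA and ribosomal RNA, rose 6.97-fold, to 277 ± 7.77 CPM in stimulated against 39.8 ± 3.29 CPM in unstimulated cells (SD, n = 3 each).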
